A study of Mus musculus with 2 samples.

Results

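Marginal cells are the epithelial layer of the stria vascularis (SV) that faces the endolymph of the cochlear duct. Their nuclei were chosen here from droplet snRNA-Seq barcodes by the UMIs of 17 genes. A barcode was a member when Kcnq1, Kcne1, Esrrb, Lmx1a, Abcg1, Heyl, Stac and Slc12a2 together made up at least 0.5% of its UMIs and the melanocyte genes Tyr, Dct, Mlana, Pmel, Mitf, Kcnj13, Slc45a2, Met and Tyrp1 together made up under 0.6%. Of 3486 nuclei kept, 1152 were members, which is 33.0% (exact 95% binomial interval 31.5% to 34.6%). All intervals cover counting error only.

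The SV came from CBA/J mice at P30, which carried no transgene or treatment named in the labels. In the MethFix library, isolated nuclei from about 5 to 6 pooled mice were fixed in methanol, and in the RNAlater library the tissue of pooled mice was held in RNAlater before nuclei were isolated. The labels and the study's methods differ in how many mice were pooled for the RNAlater library. The 2 deposited matrices held 4748 MethFix barcodes with 21027671 UMIs and 3868 RNAlater barcodes with 17681824 UMIs. They had 3323 barcodes in common, 85.9% of the RNAlater barcodes, and at those barcodes 89.4% of the MethFix UMIs were also counted in the RNAlater matrix. The 2 matrices are therefore treated as 1 sample of pooled mice, without any test between groups. Each nucleus was used once. The RNAlater set is the whole RNAlater matrix, with 2329 nuclei kept and 745 members. The MethFix-only set holds the MethFix barcodes that were absent from the RNAlater matrix, with 1157 nuclei kept and 407 members. Since 734 of the 745 RNAlater members were also barcodes of the MethFix matrix, the names of the sets say only which matrix a nucleus was read from, and values by set cannot be told apart as values of one preservation or the other.

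As background, marginal cells secrete potassium into the endolymph. At their basolateral membrane the sodium-potassium ATPase and the sodium-potassium-chloride cotransporter load the cell with potassium, while chloride channels return chloride to the intrastrial space. At the apical membrane the KCNQ1 channel with its KCNE1 subunit passes potassium into the endolymph, and loss of these proteins causes deafness. Intermediate cells, which are melanocytes, and basal cells, which are joined by tight junctions, form the other layers of the SV.

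Members were deeper than the other nuclei in the RNAlater set, with a median of 5910 UMIs and 2604 genes against 4134 UMIs and 1941 genes. In the MethFix-only set the medians were closer, at 2449 UMIs in members and 2302 in the others. Mitochondrial genes made up a median of 0.384% of the UMIs of RNAlater members and 1.44% of those of MethFix-only members, and the other nuclei had 0.405% and 1.50%. The set, more than the class of nucleus, thus separated these medians. After each nucleus was thinned to 1000 UMIs, which left out 67 members, the median number of genes was 690 in members and 661 in all other nuclei.

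The 8 marginal and 9 melanocyte genes chose the members, so their values are given as a description. Their summed share had a median of 1.87% in RNAlater members and 1.31% in MethFix-only members, against 0.171% and 0.179% in the other nuclei. The members just inside the limit had sums of 0.5%, 0.5002% and 0.503%, and the nuclei just outside it had 0.4998%, 0.4997% and 0.499%. Between 0.5% and 0.6% there were 35 members, between 0.4% and 0.5% there were 58 nuclei that only missed this limit, and 163 members (14.1%) had a sum under 1.0%. On the melanocyte side the highest member sums were 0.592%, 0.589% and 0.586%, and the lowest sums of nuclei that met the marginal limit alone were 0.610%, 0.628% and 0.631%. Those nuclei with both sums high numbered 165, of which 137 were in the MethFix-only set, and they were counted among the other nuclei.

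**Figure D1:**
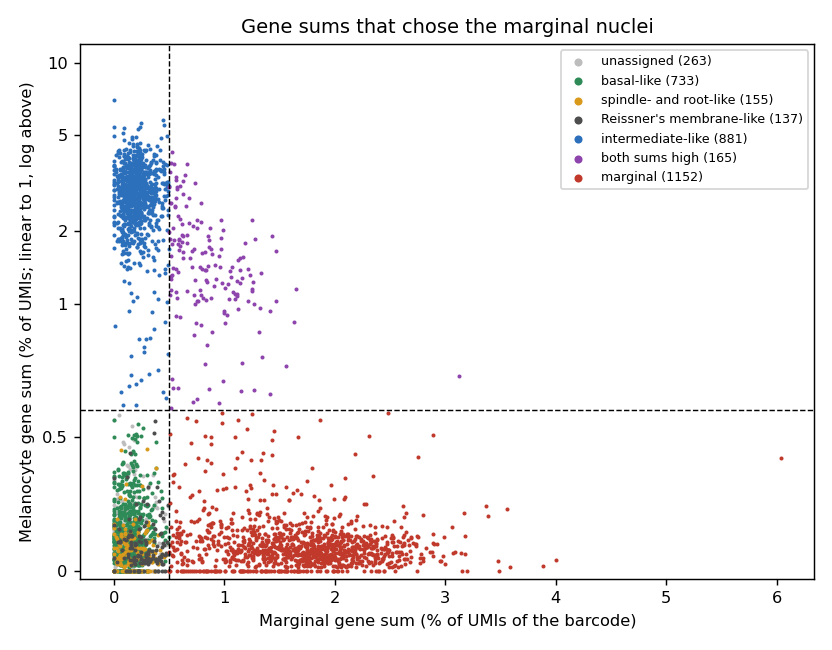
Each point is 1 of the 3486 kept nuclei, with the summed share of the 8 marginal genes on the x axis and that of the 9 melanocyte genes on the y axis, both in percent of the UMIs of the nucleus (the y axis is linear up to 1 and logarithmic above). Dashed lines are the limits of 0.5% and 0.6%, the 1152 members fill the lower right, and the 165 nuclei with both sums high lie above them.

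Among the transport genes of the rule, Slc12a2, the cotransporter NKCC1, was counted at 9213 CPM (summed UMIs scaled by the total of each group of nuclei) in RNAlater members and 5454 CPM in MethFix-only members. Its level in the other nuclei was 1542 and 2071 CPM. Kcnq1 (chr7:143106362-143427042, GRCm38), the channel itself, stood at 3112 and 2528 CPM in members against 125 and 530 CPM in the others. For Kcne1, the channel's accessory subunit, 635.7 CPM was measured in members and 87.6 CPM in the others. Both channel genes had a UMI in 38.2% of the 1085 members thinned to 1000 UMIs (35.3% to 41.2%), and in 0.473% of thinned nuclei on the intermediate side and 2.33% of all other nuclei.

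The rule also held regulators. Esrrb (chr12:86361117-86521628), an orphan nuclear receptor of the estrogen-related family, measured 2898 CPM in RNAlater members and 2605 CPM in MethFix-only members. Stac, an adaptor protein of voltage-gated calcium channels, measured 1627 CPM in members and 74.5 CPM in the other nuclei. Lmx1a, a LIM homeodomain factor of the otic epithelium, differed from the transport genes, since it was also counted at 1893 CPM in nuclei assigned to Reissner's membrane, above the 1235 CPM of members. Abcg1, a sterol exporter, and Heyl, a Notch-responsive repressor, were at 206 and 158 CPM in members. A median of 7 of the 8 genes had a UMI in a member, or 5 of 8 after thinning.

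For comparison, the remaining nuclei were divided by gene lists. The 881 nuclei with a high melanocyte sum alone are called intermediate-like, and where neither sum was high, the list with the largest share, if at least 0.2% of UMIs, gave 733 basal-like, 155 spindle- and root-like and 137 Reissner's membrane-like nuclei, while 263 were left unassigned. Dct, a melanin synthesis enzyme, belongs to the melanocyte sum that divided these classes, so its values are a description too. It had a UMI in 29.9% of thinned members, 47.7% of basal-like nuclei and 99.9% of intermediate-like nuclei. The median depth before thinning was 4904 UMIs in members and 3016 UMIs in basal-like nuclei. Its level was 299.96 CPM in RNAlater members and 749 CPM in MethFix-only members, against 18990 and 18364 CPM in intermediate-like nuclei of those sets. In basal-like nuclei it was 957 and 611 CPM. The contribution of free RNA to such UMIs was not tested.

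Marginal members were also compared with the other nuclei in markers of the other cell types that dissected tissue could hold. Of the 9 intermediate markers, of which 8 were tested, 7 were lower in members by a log2 ratio of at least 1 in size in each set, beside 12.2% of all genes tested. Nuclei with a high melanocyte sum were kept out of the members and counted among the others. Lower intermediate markers in members thus follow in large part from the rule and are a description. Kit and Trpm1 had no UMI in any member and 41 and 126 in the others. The sum of the intermediate list was 405 CPM in members and 1927 CPM in the others, and Sox10, its most abundant gene in members at 302 CPM, differed little between them (324 CPM in the others). The others pooled unlike classes, with Sox10 at 553 CPM in intermediate-like and 12.7 CPM in basal-like nuclei. It was at 273 CPM in spindle- and root-like and 218 CPM in Reissner's membrane-like nuclei. The 7 basal markers summed to 206 CPM in members against 1555 CPM, with Cldn11 leading at 94.0 CPM. By set, the basal sum was 144 CPM in RNAlater members and 427 CPM in MethFix-only members, against 1782 and 832 CPM in the other nuclei of each set.

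Lists of rarer types were each led by 1 gene or were low in members. The 10 spindle and root markers summed to 299 CPM in members and 499 CPM in the others. Dpp10 gave 245 CPM of this in members and was at 90.9 CPM in the others, a ratio of 1.43 on the log2 scale that was not called (0.65 in the MethFix-only set), while the other markers had ratios below 0 and 6 of the 10 were called lower, beside the same 12.2%. The 6 fibrocyte markers summed to 203 CPM in members and 252 CPM in the others, and in members Aldh1a2 gave 157 CPM. Bone, endothelial, pericyte, macrophage and red blood cell markers summed to between 12.2 and 28.2 CPM, with none of their genes at 0. Neuron and Schwann markers came to 349 CPM in members and 190 CPM in the others, but 322 CPM of this was Mbp, and the neuronal tubulin gene Tubb3 had no UMI in either group. The 4 Reissner's membrane markers summed to 792 CPM in members, above the 575 CPM of the others, and Meis1 alone gave 748 CPM of it. The Reissner's membrane-like nuclei, which this list defined, held Meis1 at 5947 CPM. Slc26a7 was at 2292 CPM in them and at 35.1 CPM in members.

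The label did not hold for every member. Clustering without the 17 genes of the rule divided the members into 4 clusters, of which clusters 3 and 4, with 140 and 35 members, had markers of other cell types among their 15 leading genes. Cluster 3 (26 RNAlater and 114 MethFix-only members) was led by Gm5089, Gm12153 and Bmp6 and included the markers Slc26a4, Cacna1e and Col27a1. Cluster 4 (32 RNAlater and 3 MethFix-only members) was led by Otx2os1, Tmem72 and Emx2os and included the Reissner's membrane marker Slc26a7, which encodes an anion transporter. These 175 members, 58 in the RNAlater set, are kept in all values below unless stated. Scrublet called 65 members as doublets, of which 55 were in clusters 3 and 4. By set, 4 of the 745 RNAlater members and 61 of the 407 MethFix-only members were called.

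To describe what members share outside the rule, UMIs were summed over all 1152 members (5242714 UMIs) and over all 2334 other nuclei (8581335 UMIs), and the log2 ratio of the CPM was taken for 12220 genes with at least 50 UMIs. A gene is called higher or lower in members when this ratio was at least 1 in size over both sets together and in each of them. On this rule 811 genes were higher (6.64% of those tested) and 1493 were lower (12.2%). The median ratio over all genes tested was -0.01. Without the 175 members of clusters 3 and 4 there were 859 higher and 1612 lower genes, and with the nuclei of both high sums left out of the others 964 and 1647, both being alternatives chosen after the data were seen. Since members were chosen from the same nuclei, these calls are a description, and no p-value is given.

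The 20 highest genes with at least 300 UMIs in members had log2 ratios between 4.13 and 4.96, and the 20 ratios were between 4.78 and 8.92 in the RNAlater set and between 1.80 and 2.94 in the MethFix-only set. The 165 nuclei with both sums high moved with this gap. Cacnb2 stood at 22.97 CPM in RNAlater intermediate-like nuclei and at 274 CPM in MethFix-only ones, and at 4502 CPM in the 137 MethFix-only nuclei with both sums high. When those were left out of the other nuclei, which was chosen after the data were seen, the MethFix-only ratio of Cacnb2 went from 2.45 to 4.53 and that of Pcsk6 from 2.54 to 4.86. Because those nuclei met the marginal limit, the direction of this change follows from how they were chosen. The part of doublets or of free RNA in this gap was not tested.

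**Figure D2:**
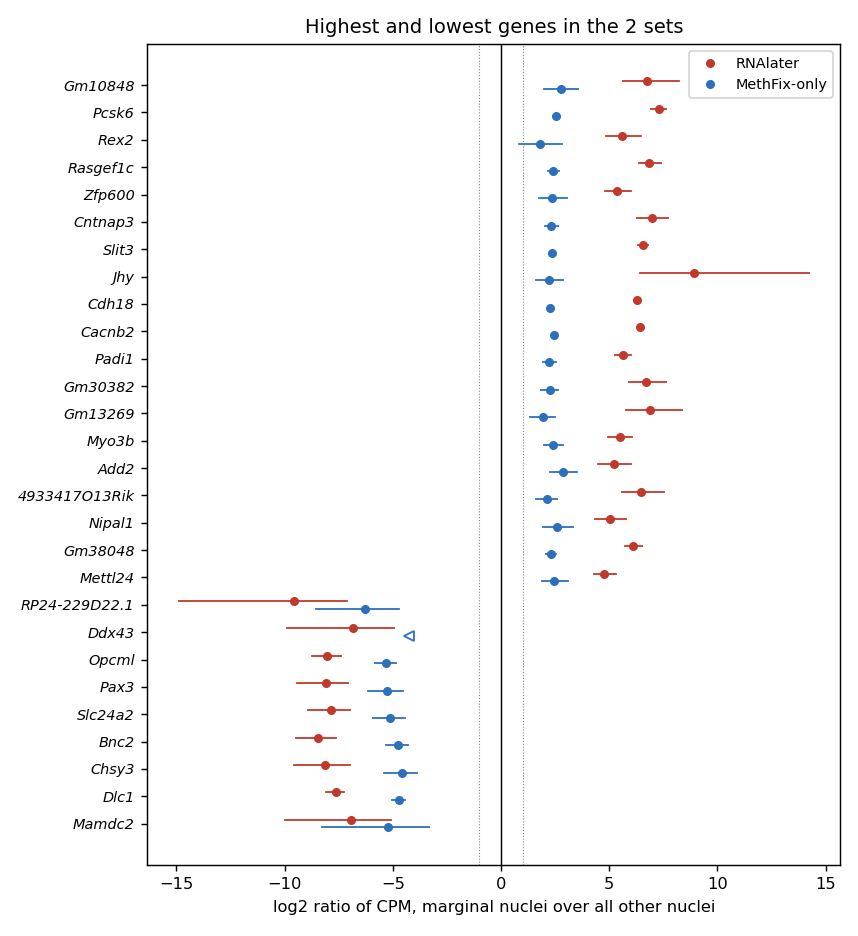
Log2 ratio of CPM in marginal nuclei over all other nuclei (x axis) for 19 of the 20 highest and 9 of the 10 lowest genes, in the RNAlater set (red) and the MethFix-only set (blue). Lines are exact 95% intervals of the ratio, open triangles mark the upper bound where members had 0 UMIs, and dotted lines mark ratios of -1 and 1; the 19 upper genes all lie farther to the right in the RNAlater set.

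Several of the highest genes encode calcium channel, adhesion and secreted proteins. Cacnb2 (chr2:14603088-14987908), the beta 2 subunit of voltage-gated calcium channels, measured 8849 CPM in RNAlater members and 8311 CPM in MethFix-only members, against 105 and 1519.5 CPM in the others, a ratio of 4.30 (4.25 to 4.35). It had a UMI in 95.4% of thinned members, 5.44% of intermediate-like and 4.83% of basal-like nuclei, and 13.4% of all other nuclei. Members of both sets were thus far above the other nuclei of either set. The antisense genes Gm10848 and Gm13269 lie inside Cacnb2 on the opposite strand and had ratios of 4.96 and 4.25; whether their UMIs are separate from those of Cacnb2 was not tested.

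Cdh18 (chr15:22549022-23474418), a classical cadherin, measured 6438 CPM in RNAlater members and 4866 CPM in MethFix-only members, against 82.7 and 1023 CPM in the other nuclei. Its ratio was 4.31 (4.25 to 4.37). Cacnb2 and Cdh18 were found together in 91.4% of thinned members (89.6% to 93.0%) in 1.65% of intermediate-like nuclei and in 7.24% of all other nuclei. Slit3 (chr11:35121224-35708507), a secreted ligand of Robo receptors, measured 2588 and 2228 CPM in members of the 2 sets, with a ratio of 4.34 (4.25 to 4.43). Pcsk6 (chr7:65861734-66050386), a proprotein convertase that cleaves secreted precursors, measured 1715 and 1274 CPM in members against 11.03 and 219 CPM in the others, and its ratio was 4.74 (4.61 to 4.87).

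The promoters of the 8 marginal rule genes and the 20 highest genes were searched for AAGGTCA, the half-site that estrogen-related receptors such as Esrrb are known to bind, in RefSeq sequences (GRCm38.p6) from 250 bases before to 50 after a gene's start. The letters were searched on both strands, and 20 of the 28 genes matched the table. Of all 32851 promoters 4.72% held the motif, and among the 20 genes Cdh18 alone did, a share near that background. Its stretch at chr15:23036213-23036272 is shown as the only match among these genes. The start in this table is that of shorter transcripts and lies inside the span of Cdh18 given above, so the stretch is not upstream of the whole gene. It is printed on the + strand, that of the gene, with the motif in capitals as its reverse complement, 228 to 222 bases before that start:
Cdh18: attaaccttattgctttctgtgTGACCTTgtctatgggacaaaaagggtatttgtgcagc
The match is a description of the letters, not of binding.

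Other high genes were less abundant. Rasgef1c, an exchange factor for Ras-family GTPases, measured 567 CPM in RNAlater members and 4.901 CPM in the others of that set, with a ratio over both sets of 4.51 (4.30 to 4.72). Cntnap3, of the contactin-associated adhesion family, had a ratio of 4.39 and Padi1, a peptidylarginine deiminase, one of 4.30. Myo3b, a class III myosin (ratio 4.25), Add2, beta-adducin of the membrane skeleton (4.20), Nipal1, a magnesium transporter family member (4.16), Jhy (4.33) and Mettl24 (4.13) followed. Jhy had 1 UMI in the other RNAlater nuclei, so that its ratio of 8.92 there has an interval of 6.43 to 14.2.

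Of the remaining genes, 4933417O13Rik (4.18) lies antisense within Kcnq1, Gm38048 (4.13) overlaps Kcnab1 on the same strand, and Gm30382 (4.28) is a lincRNA. Rex2 (4.73) and Zfp600 (4.49) belong to a zinc finger family with many similar copies on chromosome 4, which makes their counts uncertain. Rex2 also differed between the members of the 2 sets, at 111 CPM in RNAlater and 25.4 CPM in MethFix-only members. Between those sets 316 of 9004 genes were at least 2-fold higher in RNAlater members and 290 in MethFix-only members.

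The 10 lowest genes with at least 300 UMIs in the other nuclei were mostly genes of the intermediate-like nuclei. Dlc1, a GTPase-activating protein, measured 11.7 CPM in RNAlater members and 80.5 CPM in MethFix-only members, against 2352 and 2139 CPM in the others, a ratio of -6.43 (-6.68 to -6.19). Its level in intermediate-like nuclei was 4473 CPM and in basal-like nuclei 106 CPM. Opcml, an IgLON adhesion protein (ratio -6.92), Pax3, a melanocyte lineage factor (-6.87), Slc24a2, a sodium/calcium-potassium exchanger (-6.76), Bnc2, a zinc finger protein of pigment cells (-6.73) and Chsy3, a chondroitin synthase (-6.54) were likewise higher in intermediate-like than in basal-like nuclei. RP24-229D22.1 (-7.97), Ddx43 (-7.22) and Mamdc2 (-6.34) had between 2 and 4 UMIs in all members together, and their intervals were correspondingly wide. Ddx43 had no UMI in MethFix-only members.

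Against single classes, the members' profile was compared with that of their neighbours in the SV. Against the intermediate-like nuclei, 1317 of 10711 genes were higher in members (12.3%) and 955 lower (8.92%). Against the basal-like nuclei, 1043 of 10440 were higher (9.99%) and 1081 lower (10.4%). All 20 of the highest genes kept their call against the intermediate-like nuclei. The ratio of Pcsk6 was 7.26 against intermediate-like and 8.48 against basal-like nuclei, and that of Cdh18 was 6.34 and 6.71.

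Genes of basolateral potassium uptake and chloride recycling had 8 of 19 tested higher in members, 3 lower and a median ratio of 1.10. The list was put together with earlier results of these data known, and the counts of this and the following lists stand beside 6.64% higher and 12.2% lower over all genes tested. Atp1b2, the beta 2 subunit of the sodium-potassium ATPase, measured 924 CPM in RNAlater members and 665 CPM in MethFix-only members, against 98.3 and 202 CPM in the others (ratio 2.82, 2.72 to 2.92). Members of both sets were above the other nuclei of either set.

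Other subunits of the ATPase went the opposite way. Atp1b1, the beta 1 subunit, was lower in members at 91.2 and 148 CPM against 1413 and 1252 CPM (ratio -3.73), and stood at 2547 CPM in intermediate-like nuclei. Atp1b3, the beta 3 subunit, had a ratio of -2.16.

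Chloride recycling depends on barttin, a chloride channel subunit encoded by Bsnd, whose loss causes deafness with a renal salt-wasting syndrome. Bsnd had 244 UMIs in members and 27 in all other nuclei, or 52.2 and 26.3 CPM in members of the 2 sets against 1.84 and 7.31 CPM (ratio 3.89, 3.31 to 4.52). The gene was thus measured at low depth, with a UMI in 4.24% of thinned members and 0.151% of basal-like nuclei thinned alike (medians of 4904 and 3016 UMIs before thinning). With no upper limit of UMIs per nucleus its ratio was 2.85 and it lost its call.

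Of the kinases that regulate cation-chloride cotransport, Stk39, Wnk2 and Sgk1 were called higher and Wnk1 and Wnk4 were not. Stk39, the kinase SPAK that phosphorylates NKCC1, measured 2631 CPM in RNAlater members and 2283 CPM in MethFix-only members, against 645 and 747 CPM in the others (ratio 1.93, 1.89 to 1.98). It had a UMI in 85.5% of thinned members and 39.7% of all other nuclei. Wnk2 had a ratio of 2.18 and Sgk1 one of 2.24. Cab39l (1.48), a relative of the SPAK activator MO25, was called higher too, although it lost its call with no upper limit of UMIs (1.23). Wnk1 (-0.47), Wnk4 (-1.32), Cab39 (0.13), Cul3 (0.02), Nedd4l (0.51), Klhl3 (1.43) and Fxyd6 (-0.68) were not called, and Oxsr1 had no UMI in any nucleus kept.

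**Figure D3:**
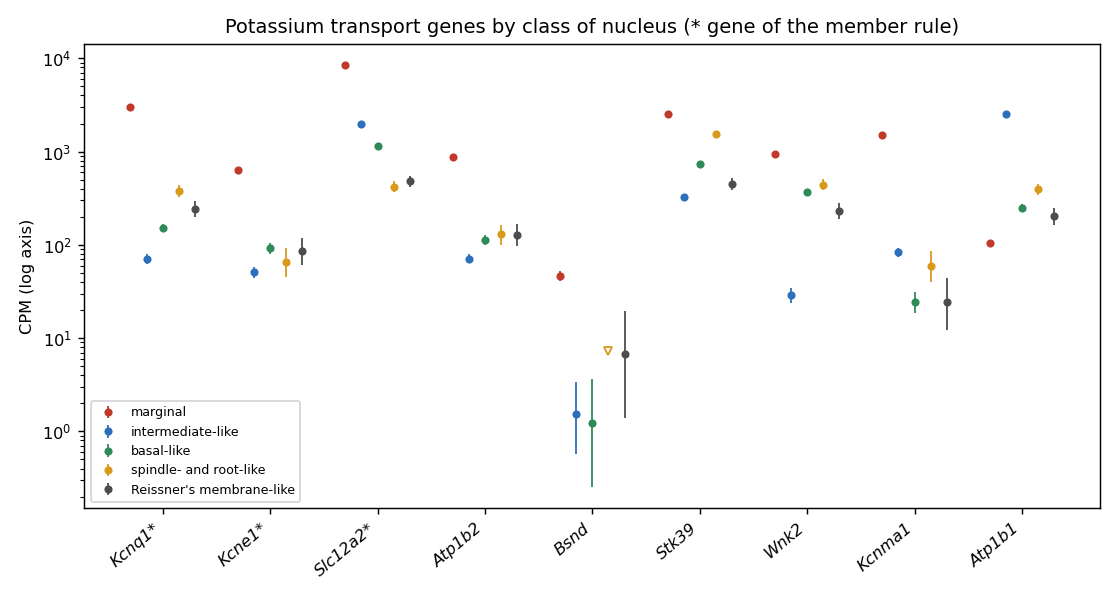
CPM on a logarithmic axis of 9 potassium transport genes (x axis) in marginal nuclei and 4 other classes, with exact 95% Poisson intervals as bars and open triangles at the upper limit where a class had 0 UMIs. Asterisks mark the genes of the member rule; marginal nuclei (red) are the highest class for each gene but Atp1b1, which is highest in intermediate-like nuclei.

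Most of the other potassium channels tested were lower in members. Of 13, 2 were higher and 9 lower, with a median ratio of -2.49. Kcnma1, the pore of the large-conductance calcium-activated channel, measured 1585 CPM in RNAlater members and 1194 CPM in MethFix-only members against 75.5 and 276 CPM in the others (ratio 3.60, 3.51 to 3.70). Kcnk1, the two-pore channel TWIK1, measured 128 and 70.0 CPM against 13.6 and 16.6 CPM (3.00, 2.72 to 3.30). Kcnj10, the inward rectifier KIR4.1 of intermediate cells, was lower at 35.6 and 74.4 CPM against 553 and 472 CPM (-3.60), and others called lower included Kcnj16, Kcnk2, Kcnk5, Kcnd2, Kcnq5, Kcnb2 and Kcnn4. The auxiliary subunits Kcne2, Kcne3 and Kcne4 had no UMI in any nucleus kept.

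Of the transcription factors outside the rule, 10 of 34 tested were higher in members and 8 lower, with a median ratio of -0.11. Esrrg, a second receptor of the estrogen-related family, measured 881 CPM in RNAlater members and 829 CPM in MethFix-only members, against 115 and 255 CPM (ratio 2.55, 2.46 to 2.64). In intermediate-like nuclei it was at 210 CPM and in basal-like nuclei at 6.99 CPM. Esrra, the third of the family, had a ratio of 1.21 in RNAlater and 0.46 in MethFix-only nuclei and was not called. Ppargc1a, which encodes a coactivator of the family, was likewise at 1.42 and 0.46.

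Pax2, a paired-box factor of the otic vesicle, measured 511 and 457 CPM in members against 68.8 and 97.0 CPM in the others (ratio 2.72, 2.60 to 2.85). Hmx2 (3.27) and Hmx3 (3.21), neighbours that act together in vestibular development, both lie opposite Fgfr2 on the other strand. Tfcp2l1 (3.13), Gata2 (2.51), Gata3 (2.38), Meis2 (1.76), Tbx1 (1.69) and Grhl2 (1.596), an epithelial grainyhead factor, were also higher. Grhl2 was at 463 CPM in Reissner's membrane-like nuclei against 170.5 CPM in members, and Gata3 at 301 CPM in spindle- and root-like nuclei against 260.4 CPM, with overlapping intervals for Gata3. Esrrg and Pax2 were found together in 20.5% of thinned members and 0.467% of all other nuclei.

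Lower factors included Zbtb16 (-3.86), Eya1 (-3.77), Klf5 (-3.61), Grhl1 (-3.43), Tbx2 (-3.25), Nr2f1 (-2.68), Rorb (-2.33) and Hey2 (-1.64). Rora, a retinoid-related orphan receptor and the most abundant gene of the list in members at 4194 CPM, had a ratio of 0.88 (0.85 to 0.90). Nr3c2, the mineralocorticoid receptor, had ratios of -0.56 in RNAlater and 0.37 in MethFix-only nuclei. Prox1 and Bcl11a had no UMI in members and 14 and 19 in the others, and Sox2, Pax8 and Foxi1 had none in any nucleus kept. In the Notch list, which holds the pathway of the rule gene Heyl, none of 9 tested genes was higher and Maml3, Maml2 and Hey2 were lower. With 9 genes, a count of 0 cannot be told apart from the 6.64% higher over all genes. Notch3, a receptor, reached a ratio of 1.91 over both sets, from 2.68 in the RNAlater and 0.26 in the MethFix-only set.

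Tight junction genes, which seal epithelia, had 9 of 20 tested higher in members and 1 lower, with a median ratio of 1.35. The tricellular junction genes Marveld2, encoding tricellulin, and Ildr1, both deafness genes, had ratios of 2.73 (2.43 to 3.03) and 1.75 (1.50 to 2.01). Marveld2 measured 96.3 CPM in RNAlater members and 68.3 CPM in MethFix-only members, against 13.2 and 15.1 CPM. Epcam, an epithelial adhesion molecule, measured 207 and 153 CPM against 26.3 and 45.3 CPM (2.66), and Cldn9, a claudin of the inner ear epithelia, 145 and 75.3 CPM against 26.0 and 32.2 CPM (2.24). Cldn7, Marveld3, Pard6b, Ocln and Cgn were higher at ratios of 1.22 to 1.99. These ratios are against the pooled other nuclei, of which the rarer epithelial classes were as high or higher for some genes, as in Ildr1 at 199 CPM in spindle- and root-like nuclei and 75.3 CPM in members, and Cgn at 157 and 77.4 CPM. Cldn14 was lower (-3.15), and Cldn11, the basal cell claudin, was at -2.48 in RNAlater and -0.66 in MethFix-only nuclei and was not called. Cdh1, E-cadherin, had a ratio of -0.60.

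Gap junction genes were low. The 3 tested connexins, Gjb2, Gjb6 and Gjc3, were all lower in members, with ratios of -2.99, -3.54 and -4.60, and Gja1 and Panx1 had no UMI in members and 37 and 25 in the others. Gjb6, whose connexin 30 couples the basal and intermediate cells, measured 28.8 CPM in RNAlater members and 105 CPM in MethFix-only members, against 547 and 466 CPM in the others. Summed over 10 genes the list came to 100.1 CPM in members and 1123 CPM in the other nuclei. Low levels were not particular to members. Reissner's membrane-like nuclei held Gjb2, Gjb6 and Gjc3 at 47.1, 44.9 and 4.49 CPM, and members at 42.7, 45.4 and 10.1 CPM. In spindle- and root-like nuclei Gjb2 and Gjc3 were at 65.8 and 1.99 CPM, and Gjb6 was higher at 173 CPM.

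Among 18 acid-base and anion transport genes tested, Car12 was the only one called higher, a share near the 6.64% of all genes, and 4 were lower. Car12, a membrane carbonic anhydrase, measured 641 CPM in RNAlater members and 587 CPM in MethFix-only members against 82.4 and 134 CPM (ratio 2.73, 2.62 to 2.84). Spindle- and root-like nuclei held Car12 at 845 CPM, above the 629 CPM of all members. Car2, the cytosolic enzyme, was lower at 21.2 and 28.9 CPM against 170.02 and 177 CPM (-2.91), with Slc4a4 (-2.21), Slc4a7 (-1.42) and Atp6v0a1 (-1.30). Slc26a2, a sulfate transporter, reached 2.12 over both sets and 0.94 in the MethFix-only set.

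In the solute carrier list 6 of 25 tested genes were higher and 7 lower. Slc22a4, the organic cation and ergothioneine transporter OCTN1, measured 545 CPM in RNAlater members and 449 CPM in MethFix-only members, against 15.5 and 92.1 CPM (ratio 3.95, 3.78 to 4.13). Slc12a7, the potassium-chloride cotransporter KCC4, measured 379 and 191 CPM against 43.0 and 61.4 CPM (2.83, 2.68 to 2.99), a call that was lost with no upper limit of UMIs (2.32). Slc35f1 (1.73), the monocarboxylate transporter Slc16a1 (1.58) and the mitochondrial carriers Slc25a3 (1.40) and Slc25a12 (1.33) completed the group. Lower genes included the amino acid transporters Slc7a5 (-5.06), Slc1a3 (-4.04) and Slc7a2 (-4.02) and the glucose transporter Slc2a1 (-1.47).

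Genes of receptor signalling to cAMP and calcium were called in both directions, with 7 of 35 tested higher, 15 lower and a median ratio of -1.53. Ptger3, the prostaglandin E receptor EP3, measured 542 CPM in RNAlater members and 313 CPM in MethFix-only members, against 26.0 and 66.3 CPM (ratio 3.79, 3.61 to 3.96). Of the inositol trisphosphate receptors, which release calcium from stores, Itpr2 (3.29, 3.22 to 3.36) and Itpr1 (1.81, 1.76 to 1.85) were higher and Itpr3 was lower (-2.11). P2ry2, a purinergic receptor, was higher at 1.84, Adcy6, an adenylyl cyclase, at 1.48, Egfr at 1.32 and Fgfr2 at 1.29. Itpr1 was at 2629 CPM in Reissner's membrane-like nuclei and 2591 CPM in members, with overlapping intervals. Members were below another class for Fgfr2, at 2501 CPM in Reissner's membrane-like nuclei and 1016 CPM in members, and for Egfr, at 420.5 CPM in spindle- and root-like nuclei and 154 CPM in members.

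The lower genes of this list held 6 phosphodiesterases and 3 adenylyl cyclases. Pde1c measured 18.8 CPM in RNAlater members and 56.9 CPM in MethFix-only members, against 1369.9 and 1078 CPM (ratio -5.59), and Pde4b 57.6 and 115 CPM against 1849 and 999 CPM (-4.56). Adcy2, Adcy8 and Adcy1 had ratios of -6.25, -3.38 and -2.88. Pde4d, the most abundant gene of the list in members at 2969 CPM, had a ratio of 0.29. Pth1r, a parathyroid hormone receptor, was lower at -1.75.

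In the lipid list 2 of 23 tested genes were higher, a share near the 6.64% of all genes, and 7 were lower. Lrp2, megalin, an endocytic receptor of apical membranes, measured 6449.9 CPM in RNAlater members and 4669 CPM in MethFix-only members against 536 and 1127 CPM (ratio 3.16, 3.12 to 3.20), and Lrp8 had a ratio of 2.14. Lrp2 was not particular to members, since Reissner's membrane-like nuclei held it at 4345 CPM in the RNAlater set and 5009 CPM in the MethFix-only set, and spindle- and root-like nuclei at 1325 CPM over both sets. Lower genes of the list included the cholesterol exporter Abca1 (-2.07), the transporters Abcg2 (-4.04) and Abca9 (-3.49), the apolipoprotein gene Apod (-3.10), the lipoprotein receptor Vldlr (-1.26) and the sterol sensor Nr1h3 (-1.26).

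**Figure D4:**
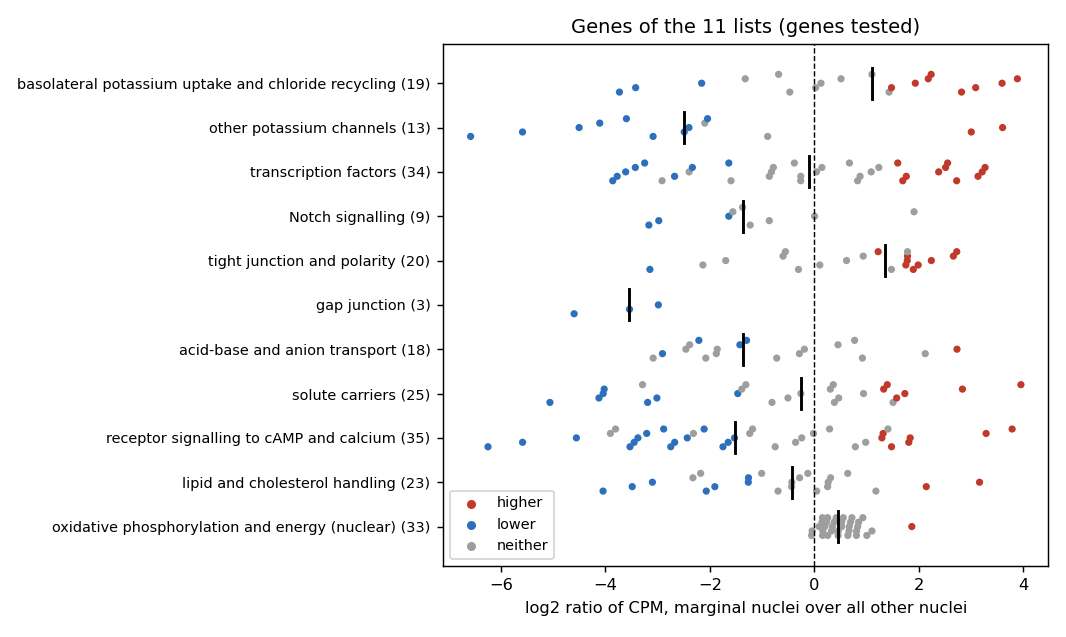
Log2 ratios of CPM, marginal over all other nuclei (x axis), of the tested genes of 11 lists (rows, with the number tested), coloured by call. Black bars are list medians and the dashed line is the median of -0.01 over all genes tested; the nuclear energy genes sit close together between -0.05 and 1.87, with a median of 0.46.

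Nearly all nuclear genes of oxidative phosphorylation and energy metabolism were left without a call. Of 33 tested, Ckmt1, a mitochondrial creatine kinase that overlaps Strc on the other strand, was the only gene called higher (1.87) and none was called lower. Their median ratio was 0.46, and all but Atp5j (-0.05) and Atp5o (-0.04) were above 0, as in Ogdh (1.10), Cox5a (0.85), Sdha (0.67) and Atp5b (0.45). Against the basal-like nuclei 7 of 33 were called higher and none lower, beside 9.99% higher and 10.4% lower of all genes in that comparison. Of 14 mitochondrially encoded genes tested none was called, and their summed level was 7700 CPM in RNAlater members against 11795 CPM in the others and 24160 against 25046 CPM in the MethFix-only set.

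A few markers of other types were high in members. Mbp, known for myelin, measured 343 CPM in RNAlater members and 246 CPM in MethFix-only members, against 34.2 and 57.001 CPM (ratio 3.02, 2.85 to 3.19). Aldh1a2, a retinoic acid-synthesizing enzyme of the fibrocyte list, measured 156 and 160.2 CPM against 12.6 and 32.6 CPM (3.17), with Coch and Otos lower (-2.43 and -1.37). Of the stress list, Hspa1b (2.93), Hspa1a (2.44), which share near-identical sequence, and Hsp90aa1 (1.57) were higher and Egr1 was lower (-1.13). The 12 cell cycle genes summed to 14.1 CPM in members and 22.3 CPM in the others, and Mki67 had 4 UMIs in members and 5 in the others.

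Variation among the members followed the set and the 2 clusters with other markers. Cluster 1 held 675 members, 669 of them RNAlater, with a median of 6084 UMIs, and cluster 2 held 302 members, 284 of them MethFix-only, with a median of 2085 UMIs. A cluster that is mostly of 1 set may be that set and not a type. Some rule and leading genes were close between them, as in Esrrb at 2991 and 2884 CPM, Stac at 1719 and 1711 CPM and Cacnb2 at 9120 and 9527 CPM. Others were higher in cluster 1, as in Slc12a2 at 9411 against 6092 CPM, Cdh18 at 6643 against 5386 CPM and Lrp2 at 6529 against 5309 CPM. Cacna1e was low in both, at 2.53 and 13.1 CPM. Gm26870 separated them at 2768 against 55.2 CPM, and had 11383 UMIs in RNAlater members but 4 in MethFix-only members. This gene followed the matrix in the other nuclei too, at 2030 CPM in the RNAlater and 30.7 CPM in the MethFix-only set. Malat1, a nuclear noncoding RNA, stood at 65558 CPM in cluster 1 and 158079 CPM in cluster 2.

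Clusters 3 and 4 had lower levels of many marginal genes, but not of all. Kcne1 in cluster 3 (649.02 CPM) was at the level of cluster 1 (649.7 CPM), and Atp1b2 was at 723 CPM in clusters 2 and 3. Cluster 3, with a median mitochondrial share of 3.44%, kept Kcnq1 at 1915 CPM, Esrrb at 1974 CPM and Cacnb2 at 6010 CPM beside Cacna1e, a calcium channel gene of the basal list, at 163 CPM and Slc26a4, pendrin, at 131 CPM. Cluster 4 had Lmx1a at 5295 CPM, above the 1216 CPM of clusters 1 and 2, and Slc26a7 at 2092 CPM, but Kcnq1 at 413 CPM, Cacnb2 at 439 CPM and 1 UMI each of Stac and Esrrg. Its median marginal sum was 0.659%, against 1.92%, 1.40% and 1.06% in clusters 1 to 3. Of the 35 members with a sum between 0.5% and 0.6%, 31 were in clusters 3 and 4. Lrp2 was at 5437 CPM in cluster 4 and between 3644 and 6529 CPM in the others.

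**Figure D5:**
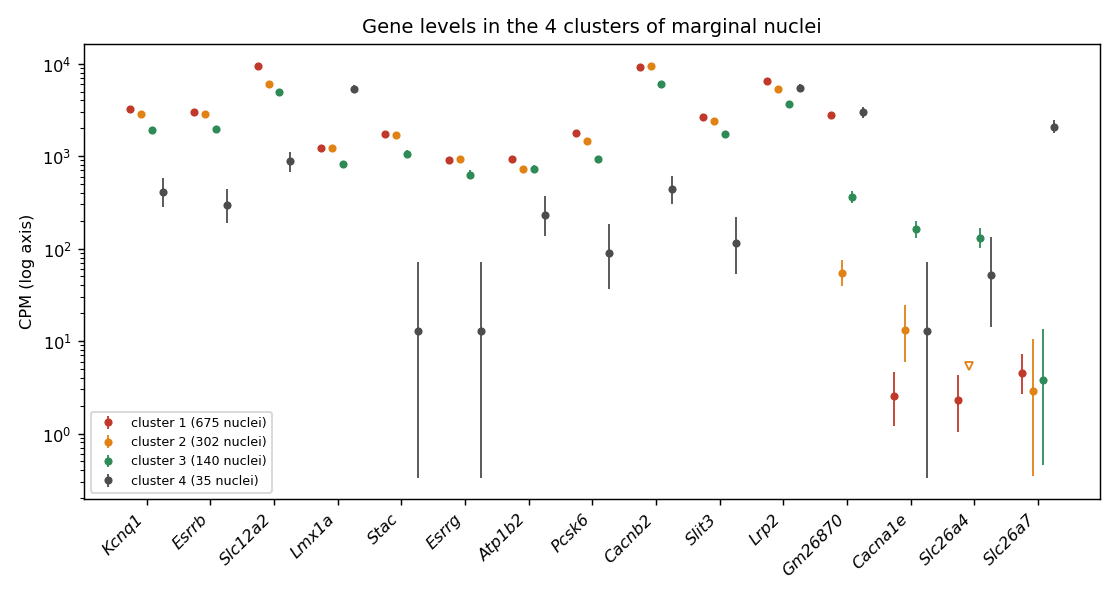
CPM on a logarithmic axis of 15 genes (x axis) in the 4 clusters of marginal nuclei, with exact 95% Poisson intervals and an open triangle at the upper limit for 0 UMIs. Clusters 1 and 2 lie farthest apart on this axis in Gm26870, at 2768 and 55.2 CPM, and also differ in Cacna1e and Slc12a2, cluster 3 adds Cacna1e and Slc26a4, and cluster 4 stands apart with high Lmx1a and Slc26a7.

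The variance of counts over their mean, in members thinned to 1000 UMIs, differed with the clusters and with the set. Over 3357 genes with at least 300 UMIs in members its median was 1.05. The 10 highest genes included Malat1 (41.9), Nkain2 (11.8), mt-Rnr2 (11.2), Col8a1 (9.59), Pde4b (9.49), mt-Cytb (7.17), Dkk2 (5.79), Cndp1 (4.79) and Il1rapl1 (4.01). Of these Nkain2, Col8a1, Dkk2, Cndp1 and Il1rapl1 were at 2841 to 7336 CPM in cluster 4 and at most 125 CPM in any other cluster. In RNAlater members alone Malat1 was at 7.0 and mt-Cytb at 2.94, while Pde4b was at 15.1. Without clusters 3 and 4 the 10 highest included Malat1 (41.2), mt-Rnr2 (8.61), mt-Cytb (4.84), Cacnb2 (3.34), Dclk1 (3.19), Gm26870 (3.10), Gm38048 (2.61) and Cdh18 (2.43).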

How the data were processed

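Droplet snRNA-Seq was measured in 2 libraries. The deposited values are UMI counts per gene and barcode, made by the authors with Cell Ranger 3.0.1 default settings on the mm10 (GRCm38) reference, with barcodes called as cells and, per the labels, Scanpy 1.4.5 used downstream. Nuclei with at least 200 genes, at most 8000 UMIs and at most 10% mitochondrial UMIs were kept. Median depths were 3998.5 UMIs (RNAlater) and 3469 UMIs (MethFix) per deposited barcode.

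Counts were summed over nuclei and divided by total UMIs (CPM). A ratio against 0 UMIs used a floor of 3 counts per group. With 1 pooled sample no test was made. Intervals of CPM (Poisson), shares (binomial) and ratios (conditional binomial) were exact at 95% and cover counting error only. Genes of the rule were left out of the calls. The named genes were the 20 with the largest ratio (at least 300 UMIs in members) and the 10 with the smallest (at least 300 UMIs in others), each called in both sets, genes of the lists, and the 10 with the highest variance to mean. The members and lists were chosen with earlier results of these data known. The limit of 0.2% for the other classes was set after seeing the data. Clustering used the Leiden method (scanpy 1.11.5, leidenalg 0.10.2) at resolution 0.5 on 2000 variable genes, 30 components and 15 neighbours. Doublets were called by Scrublet at an expected rate of 0.1 and kept in the main values. They were 210 of 3486 nuclei (6.02%). The calling step was tested on simulated data. TMM factors (edgeR 4.0.16), other limits of the rule, UMIs, mitochondrial share and fold, other size factors and each set alone were tried, with 2 alternatives added after seeing the data. Their effect is in the closing section. Coordinates are from GENCODE M21, which held 48349 of 48816 gene identifiers (versions ignored). Strand use in counting is not given in the sources used here. Some genes of the lists are not reported here.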

Additional observations from a re-analysis of the deposited data

Results flagged for a closer look

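Nuclei outside the limits on depth and mitochondrial share were not used in the comparisons, and some of them met both sums of the member rule. Among 539 barcodes over 8000 UMIs with at most 10% mitochondrial UMIs, 243 met the rule (45.1%, 40.8% to 49.4%), with a median marginal sum of 1.91%, and 138 more had both sums high. Among 1226 barcodes with over 10% mitochondrial UMIs and at most 8000 UMIs, 153 met it (12.5%, 10.7% to 14.5%), with a median marginal sum of 0.796%, a median depth of 1978 UMIs and a median mitochondrial share of 38.3%. Both counts are given because these nuclei lie outside the comparisons, and nothing is read from them.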

How the results depend on the processing

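The share of marginal nuclei, 33.0%, was 28.4% at a marginal limit of 1.0%, 38.0% at 0.3%, 31.4% at a melanocyte limit of 0.3%, 34.7% with no upper limit of UMIs, 35.2% in the MethFix-only set alone and 28.0% without clusters 3 and 4. The 811 higher genes became 527 with no upper limit of UMIs, 1249 in the RNAlater set alone (where 1 set has to pass in place of 2), 179 at a log2 ratio of 2 and 1317 against the intermediate-like nuclei alone. The 1493 lower genes became 869 in the MethFix-only set alone, 580 at a log2 ratio of 2 and 955 against the intermediate-like nuclei. Without the nuclei called as doublets there were 913 higher and 1688 lower genes. The cause of the change with the limit of UMIs was not tested. At resolution 1.0 the members fell into 8 clusters in place of 4. TMM and median-of-ratios factors gave 836 and 824 higher genes, moved the median ratio by 0.024 and 0.013 and kept all 811 calls. Over all alternatives with a value for them, between 28 and 30 of the 30 named genes kept their call. Among 938 values of 67 single genes under 14 alternatives, none reversed, 10 lost and 5 gained a call. Calls lost included Rex2 (log2 ratio 3.65), Bsnd (2.85), Cab39l (1.23) and Slc12a7 (2.32) with no upper limit of UMIs, Rex2 (1.80) and Bsnd (1.85) in the MethFix-only set and Cldn9 (2.12) at the 1.0% limit. These ratios stayed above 1, and the call also needs each set past 1 and at least 50 UMIs. In the MethFix-only set Bsnd had 30 UMIs in members and 15 in the others, together under the 50 needed. It had 244 UMIs over all members, and the cause of its lost call with no upper limit of UMIs was not tested. No paired analysis was possible because each library is 1 pooled sample and the results come from no test.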
